A study of Mus musculus with 12 samples.

Results

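Genomic regions that the transcription factor MAX occupied in every treatment of RAW264.7 cells, and in which no peak of its partner MYC was called, are described here. They were chosen from the peak positions themselves. The 4 MAX peak lists were merged into 37124 regions. A region was kept when at least 1 peak of each of the 4 MAX lists overlapped it and no peak of the 4 MYC lists did. This left 4381 regions, 11.8% of the merged regions and 91.4% of the 4792 regions found in all 4 MAX lists. The other 411 regions in all 4 lists overlapped a MYC peak, and 32332 regions were found in 1 to 3 MAX lists.

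RAW264.7 is a mouse macrophage line that can form osteoclasts, the cells that resorb bone, when it is given the cytokine RANKL. All groups were RAW264.7 cultures in DMEM, fixed with 1% formaldehyde, and the labels name no transgene. The groups were cells kept for 4 h with both RANKL at 50 ng/ml and the BET bromodomain inhibitor I-BET at 500 nM, cells kept for 4 h with I-BET alone, cells kept for 4 h with RANKL alone, and untreated cells. MYC, MAX and input chromatin each had 1 library per treatment, 12 in all, and reads were single-end and 50 bp long. The labels give bone marrow as the source and a cell line derived from monocytes as the cell type. Input libraries were not used here. With 1 library per antibody and treatment there is no replicate check, no comparison below carries a p-value, and a site bound strongly in few cells cannot be told apart from one bound weakly in many.

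MAX is a small basic helix-loop-helix leucine zipper protein that binds DNA as one partner of a pair. With MYC it activates genes of growth and biosynthesis. With the MXD proteins, MNT or MGA it recruits repressor complexes to the same kind of site, and it can also pair with itself. All of these pairs recognise the E-box, of which CACGTG is the form bound best, and in macrophages other E-box proteins (MITF, TFEB, TFE3, USF1 and USF2, and the clock proteins) read related sites. A MAX peak without a MYC peak therefore names a site and one protein, not the partner. A region without a MYC peak is also not a region shown to be free of MYC, since the MYC lists were short.

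The 6 promoters below are examples with an E-box, which 19.2% of promoter windows at such regions held. They belong to genes of this set with well-ranked regions whose promoter window holds an E-box, and each window lies in a MAX region without MYC. Windows run from 250 bases before to 50 bases after the start site in RefSeq GRCm38.p6, 5′ to 3′ on the strand of the gene, and capitals mark CACGTG. Pno1 (chr11:17211540-17211839, minus strand) makes a factor that assembles the small ribosomal subunit. Golga5 (chr12:102468884-102469183, plus strand) makes a golgin, a tether of Golgi membranes. Pes1 (chr11:3963725-3964024, plus strand) makes pescadillo, which matures the large ribosomal subunit.
Pno1: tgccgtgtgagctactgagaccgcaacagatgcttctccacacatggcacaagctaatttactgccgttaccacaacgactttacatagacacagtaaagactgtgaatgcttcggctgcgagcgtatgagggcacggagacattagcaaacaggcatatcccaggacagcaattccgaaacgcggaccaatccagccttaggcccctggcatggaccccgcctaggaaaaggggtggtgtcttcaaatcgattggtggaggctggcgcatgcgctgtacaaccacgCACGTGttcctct
Golga5: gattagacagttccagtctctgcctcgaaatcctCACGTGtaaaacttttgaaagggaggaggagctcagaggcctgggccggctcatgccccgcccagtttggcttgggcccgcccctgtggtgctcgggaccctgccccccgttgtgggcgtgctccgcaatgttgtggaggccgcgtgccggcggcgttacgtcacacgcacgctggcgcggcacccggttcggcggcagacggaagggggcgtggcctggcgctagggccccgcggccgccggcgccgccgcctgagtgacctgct
Pes1: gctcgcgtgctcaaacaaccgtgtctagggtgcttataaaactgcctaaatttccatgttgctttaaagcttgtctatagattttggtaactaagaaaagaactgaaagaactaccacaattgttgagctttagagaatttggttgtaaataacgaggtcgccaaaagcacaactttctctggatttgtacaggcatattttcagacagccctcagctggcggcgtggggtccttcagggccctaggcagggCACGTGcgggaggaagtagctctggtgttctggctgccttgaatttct

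The other promoters of this group carry several E-boxes each. Ciart (chr3:95882179-95882478, minus strand) makes a circadian repressor and has 3. Lamp1 (chr8:13158911-13159210, plus strand), for the major membrane protein of lysosomes, has 4. Cdk4 (chr10:127063285-127063584, plus strand), for the kinase that drives cells through G1, also has 4.
Ciart: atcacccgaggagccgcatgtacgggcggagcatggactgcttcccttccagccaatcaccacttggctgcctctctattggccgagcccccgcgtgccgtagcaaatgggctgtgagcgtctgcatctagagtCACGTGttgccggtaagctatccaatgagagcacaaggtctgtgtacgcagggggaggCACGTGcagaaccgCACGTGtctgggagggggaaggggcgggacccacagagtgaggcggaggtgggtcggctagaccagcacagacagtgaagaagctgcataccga
Lamp1: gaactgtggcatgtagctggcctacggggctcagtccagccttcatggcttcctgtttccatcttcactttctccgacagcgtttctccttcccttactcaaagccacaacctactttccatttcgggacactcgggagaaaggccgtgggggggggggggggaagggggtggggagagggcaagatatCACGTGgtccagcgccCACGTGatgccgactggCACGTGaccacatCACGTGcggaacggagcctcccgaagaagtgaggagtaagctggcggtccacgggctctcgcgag
Cdk4: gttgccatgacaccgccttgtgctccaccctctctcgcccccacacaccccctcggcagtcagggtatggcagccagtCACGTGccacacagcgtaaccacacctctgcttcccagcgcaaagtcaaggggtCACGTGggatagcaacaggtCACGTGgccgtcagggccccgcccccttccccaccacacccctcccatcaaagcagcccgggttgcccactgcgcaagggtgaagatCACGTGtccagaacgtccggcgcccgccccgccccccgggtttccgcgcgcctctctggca

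The E-boxes of Ciart are centred at -113.5, -55.5 and -41.5 bp from the start site, and the first 3 of Lamp1 at -58.5, -42.5 and -25.5 bp. The MAX region at Lamp1 covered 621 bp with RANKL plus I-BET, 984 bp with I-BET, 708 bp with RANKL and 466 bp in untreated cells. The one at Ciart covered 810, 1533, 843 and 800 bp in the same order, and the one at Cdk4 covered 768, 1423, 617 and 796 bp. At each of these 3 genes the region was widest in the I-BET list, as were 89.3% of all 4381 regions. The 3 MAX regions ranked between positions 98 and 443 in each of the lists by the score of the authors, which orders peaks within a list only.

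CACGTG was in a larger share of the promoters at MAX regions without MYC than of promoters at regions in 1 to 3 lists or without MAX. Of the 2939 promoter windows of protein-coding genes that overlapped such a region, 565 held CACGTG on either strand, 19.2% (17.8 to 20.7; exact Clopper-Pearson 95% interval, as for all shares below, which covers counting error only). The share was 27.7% (23.1 to 32.7) of windows at all-treatment regions with MYC, 6.97% (6.38 to 7.59) of 6875 windows at regions in 1 to 3 lists and 4.72% (4.33 to 5.13) of 11091 windows without a MAX region. Over all 21262 windows it was 7.84%. The sequence was not used to choose the regions.

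The related site CACGCG was in 28.4% of windows at the regions without MYC, in 36.1% at those with MYC, in 15.2% at regions in 1 to 3 lists and in 5.12% without MAX, against 12.1% of all windows. The looser pattern CANNTG, which includes CACGTG, followed no such order, with 60.8%, 65.5%, 61.1% and 76.2% in the same 4 classes and 69.0% of all windows. TCACGTGA, a longer form of CACGTG that MiT/TFE and USF factors prefer, was in 3.30% (2.68 to 4.01) of windows at regions without MYC, in 1.68% (0.619 to 3.62) at regions with MYC, in 1.61% at regions in 1 to 3 lists and in 0.433% without MAX, against 1.23% of all windows. The interval for the regions with MYC spans the value for those without. Both strands were searched for each motif.

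Promoters with MAX are rich in CpG, so the shares were also read within bands of CpG number. Windows at regions without MYC had a median of 26 CpG, those with MYC 28, those at regions in 1 to 3 lists 21 and those without MAX 4. Among windows with 20 to 29 CpG, CACGTG was in 20.4% (18.1 to 22.9) at regions without MYC, 33.6% (25.5 to 42.5) at regions with MYC, 6.60% (5.63 to 7.69) at regions in 1 to 3 lists and 10.8% (8.75 to 13.2) without MAX. With 10 to 19 CpG it was in 21.3% (18.2 to 24.8; 130 of 609) without MYC and 18% (9.36 to 29.98; 11 of 61) with MYC. The order of these 2 classes differed in that band only, and the interval with MYC spans the share without. With 30 or more CpG the shares were 17.6% without MYC and 27.2% with MYC. Windows without MAX held it more often than those at regions in 1 to 3 lists in each band from 10 CpG up. With 10 to 19 CpG these were 8.45% and 7.42%. With 0 to 9 CpG the order was the other way, 3.04% and 6.69%. Of the 16 palindromes of 6 bases with CG in the middle, CACGTG had the highest ratio between windows at regions without MYC and windows at regions in 1 to 3 lists, 2.76, and the next was CGCGCG at 1.54. ETS (CCGGAAG) and NFY (CCAAT) motifs were in 22.2% and 34.9% of windows at regions without MYC and in 20.5% and 40.9% at regions in 1 to 3 lists, against 11.6% and 38.2% of all windows.

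**Figure D1:**
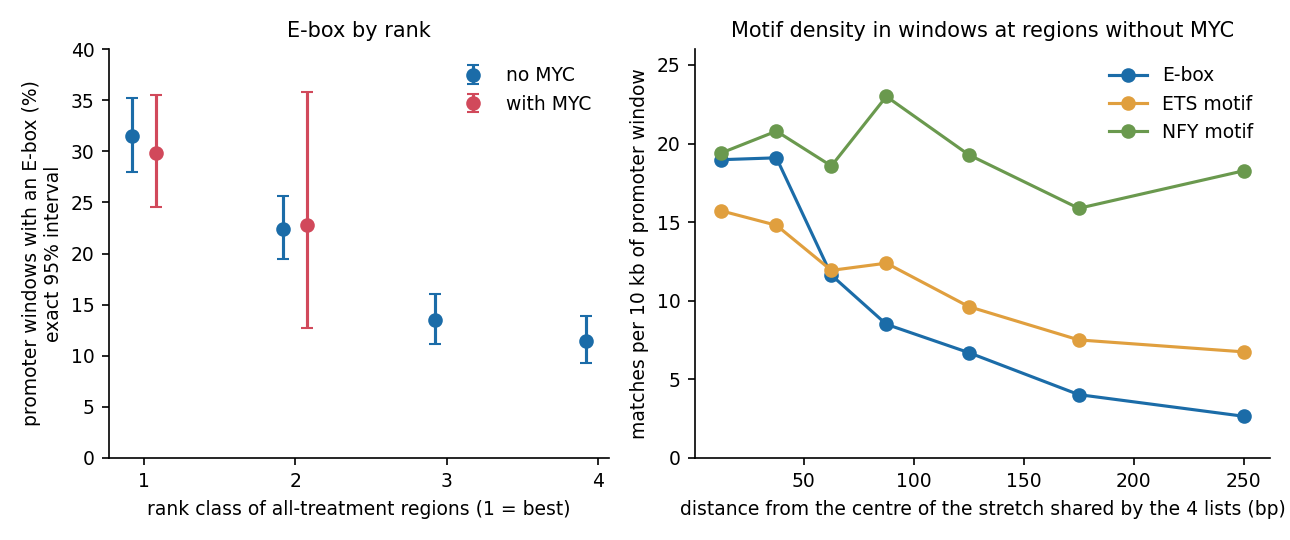
Left, share of promoter windows with CACGTG (percent, exact 95% interval) by rank class of the all-treatment MAX regions, 4 classes of 1198 regions ordered by mean rank, for regions without MYC (blue) and with MYC (red, shown where at least 20 windows were at hand). Right, motif matches per 10 kb of promoter window at regions without MYC by distance (bp) from the centre of the stretch that all 4 lists share. The E-box share of regions without MYC is 31.5% in class 1 and 11.5% in class 4, and E-box density is 19.1 matches per 10 kb at 25 to 50 bp from the centre and 2.65 at 200 to 300 bp, while the NFY motif lies between 15.9 and 23.0.

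The E-box share followed the rank of the region. For each all-treatment region the percentile rank by score was averaged over the 4 MAX lists, and the 4792 regions were cut into 4 rank classes of 1198, with class 1 the best ranked. In windows at regions without MYC the share was 31.5% (28.0 to 35.2; 211 of 669) in class 1, 22.4% in class 2, 13.4% in class 3 and 11.5% in class 4 (9.31 to 13.9; 90 of 786). Class 1 regions with MYC gave 29.8% (24.6 to 35.5; 85 of 285). MYC peaks lay mostly in that class, on 26.5% of its regions, against 6.01%, 1.34% and 0.501% in classes 2, 3 and 4. Within class 1 the E-box shares of regions without and with MYC thus lay inside each other's intervals.

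E-boxes were also more frequent near the middle of the bound stretch. Of 620 CACGTG matches in windows at regions without MYC, 307 lay within 50 bp of the centre of the stretch shared by all 4 lists, 49.5% (45.5 to 53.5), while 24.1% of the searched positions lay that near. The same share was 39.4% (36.3 to 42.5) for CACGCG, 34.7% (31.2 to 38.3) for the ETS motif, 25.5% (23.2 to 28.0) for the NFY motif and 28.8% (23.1 to 34.9) for GACGTC, a palindrome with the same base content. In class 1, 53.9% (47.6 to 60.1) of 256 CACGTG matches lay within 50 bp, and in class 4, 40.5% (29.9 to 51.7) of 84 did. The centres sat a median of -49 bp from the start site, that is upstream of it. In the printed promoters they sat at -154 bp (Pno1), -10 bp (Golga5), -118 bp (Pes1), -252 bp (Ciart), 31 bp (Lamp1) and -37 bp (Cdk4). The single E-boxes of Pno1, Golga5 and Pes1 were centred at 39.5, -213.5 and 4.5 bp. These, and all E-boxes of Ciart, lay more than 50 bp from the centre.

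Promoters with several E-boxes were rare everywhere. At least 2 were in 2.76% (2.19 to 3.41) of windows at regions without MYC, 5.60% (3.46 to 8.52) at regions with MYC, 0.378% at regions in 1 to 3 lists and 0.289% without MAX. Mfsd1, for a lysosomal membrane transporter, had 5 and was the richest promoter at a region without MYC. Zmym6 had 4 like Lamp1 and Cdk4, and Amdhd2, Dvl2, Napa and Ube2b had 3, as had Ubap2l and 4933434E20Rik, whose windows overlap.

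The 15 best-ranked MAX regions without MYC all lay at ends of protein-coding genes. Gorab, for a golgin of the trans-Golgi, came first with ranks 8 of 6307 with RANKL plus I-BET, 2 of 36785 with I-BET, 11 of 10889 with RANKL and 10 of 8839 in untreated cells. Its region (chr1:163403389-163404147) covered 452, 713, 495 and 548 bp in that order. Nup85, a scaffold protein of the nuclear pore (chr11:115564038-115564896), held the top peak of both the RANKL and the untreated list, and ranked 13 with both agents and 106 with I-BET. Ipo13, an importin (chr4:117914793-117916251), held the top I-BET peak and ranked 39 with both agents, 32 with RANKL and 52 in untreated cells. Rps12, a protein of the small ribosomal subunit (chr10:23786573-23787855), held the top peak of the RANKL plus I-BET list and ranked 137, 67 and 54 in the other lists. So the highest peak of every MAX list was in a region without a MYC peak. These ranks come from the scores that belong to the peaks which chose the regions, and they are given as a description.

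The rest of these 15 regions lay at the shared promoter of Rps27a (ubiquitin fused to a ribosomal protein) and Clhc1, at Ndufa4 (a subunit of the respiratory chain) with Phf14, at Suclg1 (an enzyme of the citric acid cycle), at Pno1 with Wdr92, at Upf2 (nonsense-mediated decay of mRNA), at Ak6 with Rad17 and Taf9, at Atp5l (a subunit of ATP synthase), at Farsb (phenylalanyl-tRNA synthetase), at Bckdha with Exosc5 (an exosome subunit), at Gga3 with Mrps7 (a mitochondrial ribosomal protein) and at Caprin1 (an RNA-binding protein). Rps27a ranked 19, 11, 15 and 15 with RANKL plus I-BET, with I-BET, with RANKL and in untreated cells. Atp5l ranked 12, 233, 34 and 12. The lowest of the 15 by mean rank, Caprin1, ranked 23, 70, 57 and 62. These regions stood near the top of all 4 lists.

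MAX regions without MYC made up very different parts of the 4 lists. They held 72.7% (71.6 to 73.8) of the 6307 peaks with RANKL plus I-BET, 12.1% (11.8 to 12.4) of the 36785 peaks with I-BET, 42.7% (41.8 to 43.6) of the 10889 peaks with RANKL and 52.4% (51.3 to 53.4) of the 8839 peaks in untreated cells. The number of such regions is the same in each list by the rule, so these shares move with the number of peaks called, and 24827 of the merged regions were called with I-BET only. The files give no read depth, and the part of depth in these numbers was not tested.

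At the very top of the rank order the lists were more alike. When each list was cut into 10 bins of equal size by score, 64.8% of the peaks of the highest bin with RANKL plus I-BET, 69.7% with I-BET, 71.2% with RANKL and 67.2% in untreated cells lay in regions without MYC. In the second bin the shares were 83.8%, 30.2%, 81.8% and 83.0% in that order, so the I-BET list already departed there. In the lowest bin they were 55.0%, 0.625%, 10.7% and 20.9%. The highest bin held 630 peaks with RANKL plus I-BET and 3678 with I-BET. All-treatment regions with MYC held a further 35.2%, 9.98%, 27.7% and 31.5% of the highest bin. The highest bin of every list therefore consisted mostly of regions bound in all treatments, and most of those had no MYC peak. Scores of the 4381 regions went together between lists, with Spearman correlations of 0.47 (I-BET with untreated) to 0.62 (RANKL with untreated), given as a description across regions.

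**Figure D2:**
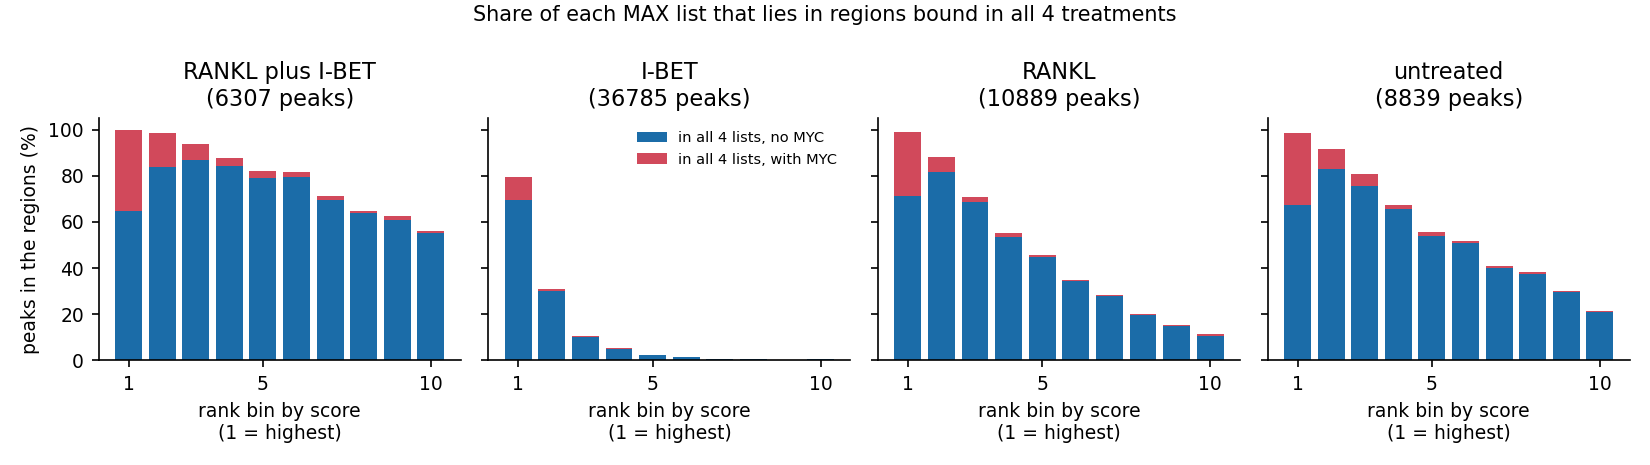
Share of the peaks (percent) of each MAX list that lie in regions found in all 4 lists, without MYC (blue) and with MYC (red), by bin of the list (10 bins of equal size) in order of the authors' score. In the highest bin 64.8% to 71.2% of peaks lie in regions without MYC, and in the lowest bin 0.625% with I-BET and 55.0% with RANKL plus I-BET.

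Peaks of these regions were widest with I-BET and narrowest with RANKL plus I-BET. Peaks covered a median of 434 bp with both agents (middle 50% of regions, 349 to 571), 1009 bp with I-BET (740 to 1344), 579 bp with RANKL (453 to 780) and 503 bp in untreated cells (401 to 667). Region by region, the median ratio was 1.82 for I-BET over untreated (1.79 to 1.85), and 94.1% of the 4381 regions were wider with I-BET. It was 1.13 for RANKL over untreated (1.12 to 1.13), with 69.2% wider. For RANKL plus I-BET it was 0.788 over RANKL (0.780 to 0.796), with 84.0% narrower, 0.884 over untreated and 0.475 over I-BET. I-BET was the widest list in 89.3% of regions, and the list with both agents the narrowest in 60.4%. I-BET thus went with wider peaks when given alone and with narrower ones when RANKL was present. Widths come from the peaks that chose the regions and from 1 library each. They move with the number of peaks called, from 6307 to 36785, whose part in the result was not tested.

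Regions with MYC had the same order at larger widths. Their medians were 599 bp with RANKL plus I-BET, 1252 bp with I-BET, 805 bp with RANKL and 682 bp in untreated cells. The ratios were 1.69 for I-BET over untreated, 1.12 for RANKL over untreated and 0.80 for RANKL plus I-BET over RANKL. Peaks of the same lists outside all-treatment regions had medians of 348, 433, 423 and 386 bp, so the I-BET list was not wider than the RANKL list by a like amount there.

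**Figure D3:**
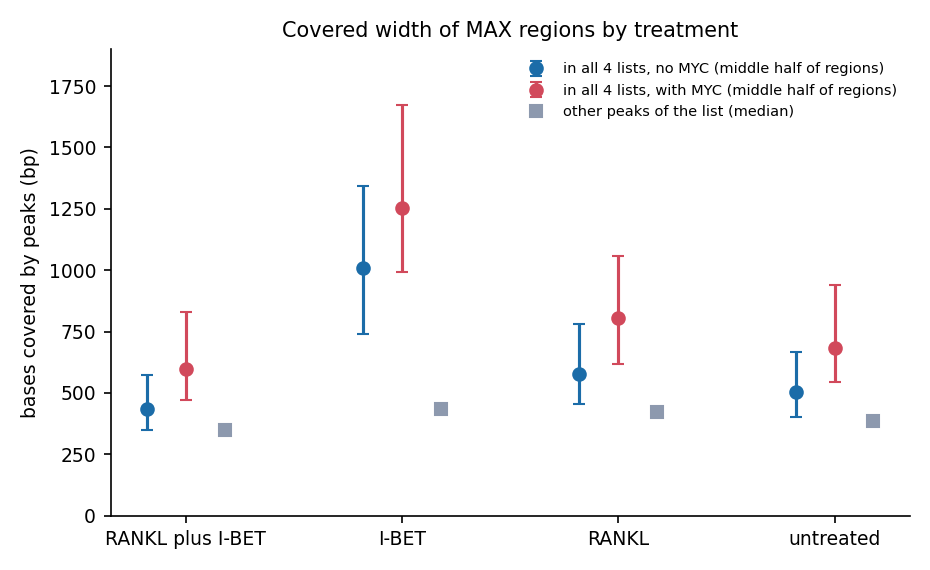
Bases covered by MAX peaks (bp) in all-treatment regions without MYC (blue) and with MYC (red), as the median with bars for the middle 50% of regions, and the median of the other peaks of each list (grey squares). Regions without MYC have medians of 434, 1009, 579 and 503 bp from left to right, below the regions with MYC in every list.

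Single genes departed far from these medians. At Gadd45b, a stress gene that NF-kB induces, the region covered 314 bp with RANKL plus I-BET, 2007 bp with I-BET, 1647 bp with RANKL and 423 bp in untreated cells. It had the lowest ratio of RANKL plus I-BET over RANKL at a gene end, 0.191, and the third highest of RANKL over untreated, 3.89. Arrb1, for a beta-arrestin, had the highest of RANKL over untreated, 4.36, with 363, 1954, 1501 and 344 bp in the same order. Rad23b (nucleotide excision repair) followed with 3.96, and Srcap (a chromatin remodeller) had 3.72. At each of these 4 genes the region was wider with RANKL alone and with I-BET alone than with both agents or in untreated cells. Their choice by RANKL over untreated fixed that difference in advance. Of all 4381 regions, 94.1% were wider with I-BET than in untreated cells. With RANKL plus I-BET, 84.0% were narrower than with RANKL.

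At Traf3, a regulator of the alternative NF-kB pathway, the region covered 571 bp with RANKL plus I-BET, 2212 bp with I-BET, 257 bp with RANKL and 690 bp in untreated cells, against the general direction of RANKL. Ddit3 (the stress factor CHOP) shares a region with Mbd6, which covered 448 bp with RANKL and 1336 bp in untreated cells, the lowest ratio for RANKL at 0.335. Rps14 had 0.362 and Rin2 0.389. The widest changes with I-BET over untreated were 8.54 at the shared region of Atrip, Shisa5 and Trex1, 8.37 at Soga1 with Tldc2, 7.93 at Frmd8 and 7.06 at Jade2. The region of Atrip covered 442, 3168, 442 and 371 bp with both agents, with I-BET, with RANKL and in untreated cells. The lowest ratios for I-BET were 0.734 at Tspoap1, 0.736 at Il1rl1 (the receptor of interleukin 33), 0.753 at Akr1b8 and 0.791 at Tmem41b. RANKL plus I-BET over RANKL was also low at Trappc5, 0.206, Snrnp70, 0.209, and Abhd11, 0.217, and was highest at Cdk2ap1, 2.29, Ranbp9, 2.27, and Cenpb, 2.23. These extremes are single peaks of single libraries.

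Most MAX regions without MYC lay at genes. Within 1 kb of either annotated end of a protein-coding gene lay 60.8% (59.3 to 62.3; 2664 of 4381), compared with 69.6% (64.9 to 74.0) of the 411 regions with MYC and 28.3% (27.8 to 28.8) of the regions in 1 to 3 lists. Over all merged MAX regions it was 32.6%. A listed start site lay inside 51.7% (50.2 to 53.2) of regions without MYC, 60.8% (55.9 to 65.6) of those with MYC and 17% (16.6 to 17.4) of those in 1 to 3 lists. A further 18.5% lay inside a gene away from its ends and 15.8% outside genes, against 39.8% and 29.7% of the regions in 1 to 3 lists. Start sites thus lay in most regions of either all-treatment class. A wider region can hold more sites. The median merged width was 1032 bp without MYC, 1287 bp with MYC and 440 bp for regions in 1 to 3 lists. The part of width in these shares was not tested.

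Start sites of 2 genes on opposite strands lay in 12.4% (11.1 to 13.9; 282 of 2266) of the regions without MYC that held a start site. The share was 16% (11.7 to 21.1) with MYC and 7.47% (6.79 to 8.20) in 1 to 3 lists. The part of region width in these shares was not tested either. Away from gene ends, well-ranked regions lay inside Ppt1 (chr4:122847926-122848751, a lysosomal thioesterase), Pik3r5 (chr11:68439843-68440606, a regulatory subunit of PI3-kinase gamma), Stard13 and Mtss1. The best outside annotated genes was chr11:98788798-98789585, with ranks 77, 95, 81 and 162 with RANKL plus I-BET, with I-BET, with RANKL and in untreated cells. These were picked after their values were seen.

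The 4381 regions put 3218 of 21883 protein-coding genes, 14.7%, within 1 kb of a region. Regions with MYC reached 367 genes, 1.68%, and any merged MAX region 11014 genes, 50.3%. Of the 3218 genes, 73 had 2 or more such regions, and 17 also had an all-treatment region with MYC. A gene counted in the lists below has a region at either of its ends, which need not be its promoter. Counts are set beside the 14.7% of all genes. Of the genes with any MAX region, 29.2% had a region without MYC. In the lists below that share was 30.2% for proteasome genes and 35.3% for ER to Golgi genes. It was 31.9% for cell cycle genes and also for the list of BET proteins, P-TEFb, elongation and Mediator. For nuclear pore genes it was 57.1% and for clock genes 68.8%. No list was tested.

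**Figure D4:**
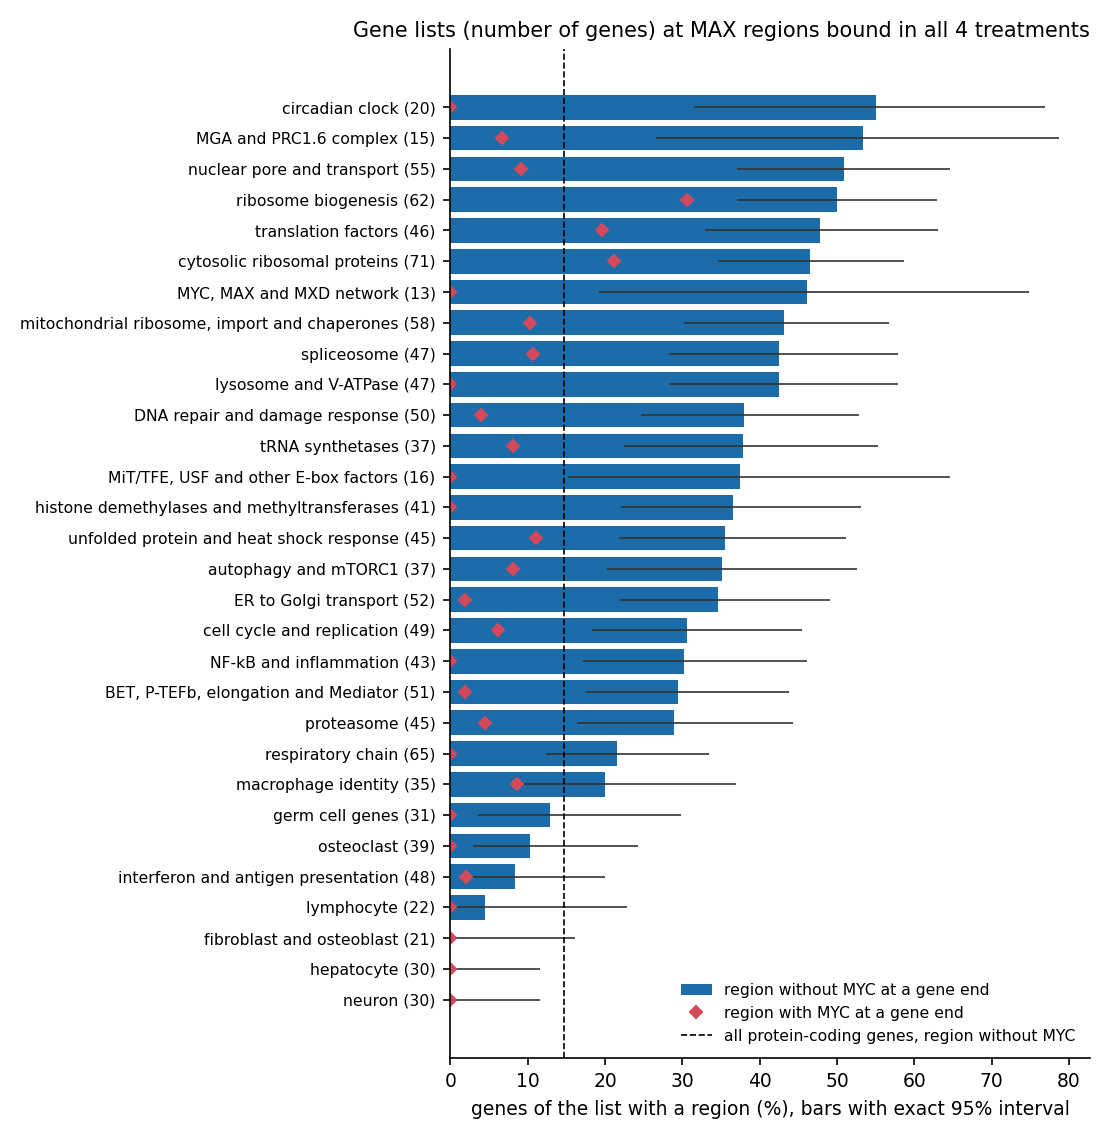
Share of each gene list (percent, number of genes in brackets) with a MAX region without MYC at a gene end, as blue bars with exact 95% intervals, and with an all-treatment region with MYC, as red diamonds. The dashed line is the 14.7% of all protein-coding genes. Clock, MGA complex, nuclear pore and ribosome lists reach 46.5% to 55.0%, while the fibroblast, hepatocyte and neuron lists are at 0.

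Genes of the MAX network itself were among those with a region. It lay at 6 of the 13 genes, at Max and at its partners Mnt, Mga, Mxd3 and Mxd4, and at Mlxip, which encodes MondoA, a glucose-sensing relative that pairs with MLX. None of the 13 had an all-treatment region with MYC, which 1.68% of all genes had. The Max region covered 826 bp with RANKL plus I-BET, 1404 bp with I-BET, 1151 bp with RANKL and 792 bp in untreated cells, and ranked 364, 1742, 503 and 712. The Mnt region was one of the widest named here and covered 1586, 3593, 3007 and 1819 bp in the same order. Mxd4 covered 500, 1590, 636 and 372 bp, and Mga 1026, 1253, 1143 and 575 bp. Each of these 4 regions was widest in the I-BET list, as were 89.3% of all 4381 regions.

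Other genes of the network had MAX in fewer lists. Myc, Mycl, Mycn and Mlx had a MAX region at a gene end in the I-BET list only. Mxi1 had one with I-BET and with RANKL, and Mxd1 in all lists but the one with both agents. Whether these genes lacked MAX in the other treatments is not known, since the lists differ in length between 6307 and 36785 peaks.

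MGA builds the PRC1.6 complex, which silences germ cell genes through E2F6, L3MBTL2 and PCGF6. Of 15 genes for its parts 8 had a region without MYC, 53.3% (26.6 to 78.7), which were Hdac2, Rybp, Wdr5, E2f6, Ehmt2, Ehmt1, Mga and Cbx3. Tfdp1 had a region with MYC. E2f6 covered 611 bp with RANKL plus I-BET, 1326 bp with I-BET, 915 bp with RANKL and 617 bp in untreated cells. L3mbtl2 was bound with I-BET and in untreated cells and Pcgf6 with I-BET alone. Of 31 germ cell genes 4 had a region without MYC, 12.9% (3.63 to 29.8), near the 14.7% of all genes, and 26 had no MAX region in any list. The 4 were Zcwpw1, Mei1, Tdrkh and Tex14, and 3 of them share the region with another gene (Mepce at Zcwpw1, Ccdc134 at Mei1, Rad51c at Tex14). Germ cell promoters away from these regions held CACGTG in 12 of 23 genes, 52.2%, against 6.81% of all genes away from these regions.

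Genes of the circadian clock had the highest share. The clock runs on CLOCK and ARNTL, which bind E-boxes and are held back by PER, CRY and CIART, with NR1D1 and NR1D2 in a second loop. Of 20 genes 11 had a region without MYC, 55.0% (31.5 to 76.9), and none had one with MYC, which 1.68% of all genes had. They were the repressors Ciart, Per1, Per2, Per3, Cry1, Cry2, Nr1d1, Nr1d2, Bhlhe40 and Bhlhe41 and the output factor Dbp. The Nr1d2 region ranked 391 with RANKL plus I-BET, 99 with I-BET, 484 with RANKL and 466 in untreated cells, and covered 999, 1723, 1378 and 1315 bp. Per1 ranked 1364, 1510, 367 and 258 and covered 564, 1041, 645 and 632 bp. Nr1d1 had 2 regions, of which the better ranked covered 783, 854, 791 and 644 bp. Of the activators, Clock had MAX in every list but that of untreated cells, and Arntl had none. E-boxes were in the promoters of 5 of the 10 clock genes with a promoter in such a region, which were Bhlhe41, Ciart, Cry1, Per1 and Tef, and in 0 of the 7 other clock genes with a window. Tef is not among the 11 genes above, as no such region lay at its annotated ends.

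Other E-box factors had 6 regions in 16 genes, 37.5%, at Bhlhe40, Bhlhe41, Mitf, Tcf3, Tcf4 and Tcf12. None had one with MYC, against 1.68% of all genes. Mitf, a factor that osteoclasts need, covered 270 bp with RANKL plus I-BET, 1129 bp with I-BET, 415 bp with RANKL and 380 bp in untreated cells. Tfeb, Tfe3, Usf1 and Usf2 had a MAX region only in the I-BET list.

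Lysosome genes, which TFEB and its relatives control through E-boxes, had a region without MYC at 20 of 47, 42.6% (28.3 to 57.8), and one with MYC at none, against 1.68% of all genes. The best-ranked were Lamp1, Ctss (a cathepsin), Glb1 (beta-galactosidase), Hexa (hexosaminidase), Mcoln1 (a calcium channel) and Atp6v0b (a subunit of the proton pump). A further 26 had MAX in 1 to 3 lists and 1 had none. CACGTG was in 11 of the 15 genes with a promoter in a region without MYC, 73.3%, the highest share among the lists with at least 10 such genes, and in 5 of the 21 others, 23.8%. TCACGTGA was in 5, which were Atp6v0d1, Atp6v0e, Ctsa, Ctsd and Mcoln1. Over all 2566 genes with a promoter in such a region, CACGTG was in 20.7% and TCACGTGA in 3.62%. Autophagy and mTORC1 genes had 13 of 37, 35.1%, with Atg5, Map1lc3b and Mtor best ranked, and 3 with MYC (Atg4b, Lamtor2 and Tsc1). E-boxes were in 5 of 13 of their promoters, 38.5%.

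**Figure D5:**
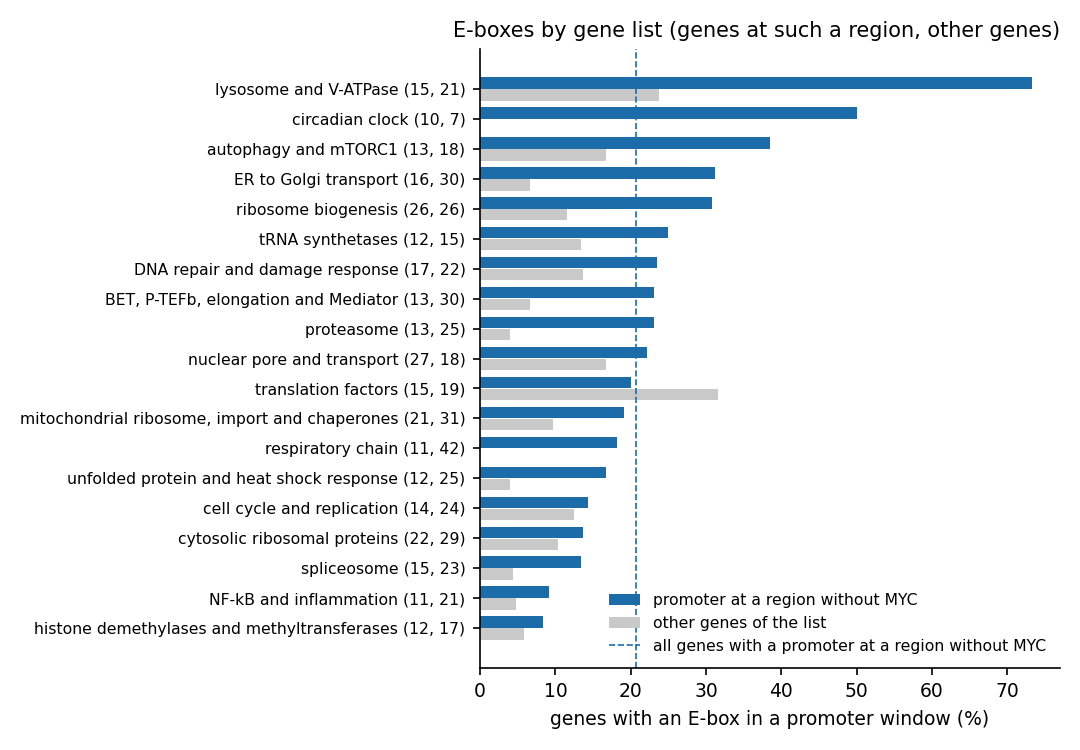
Share of genes with CACGTG in a promoter window (percent) in each list with at least 10 genes at a region without MYC, for genes with a promoter in such a region (blue) and the other genes of the list (grey), numbers in brackets in that order. The dashed line is the 20.7% of all genes with a promoter in such a region. Lysosome genes reach 73.3% and clock genes 50.0%, while histone enzymes are at 8.33%.

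Genes for making ribosomes were divided between regions without and with MYC. Ribosome biogenesis had 31 of 62 genes with a region without MYC, 50.0% (37.0 to 63.0), and 19 with one with MYC. Pes1, Nol11, Nle1, Ddx10, Ebna1bp2 and Nop2 were best ranked among the 31. Ncl, Npm1, Nop56, Nop58, Dkc1 and Polr1b (nucleolin, nucleophosmin, snoRNP proteins and an RNA polymerase I subunit) were among the 19. Cytosolic ribosomal proteins had 33 of 71, 46.5% (34.5 to 58.7), and 15 with MYC. Translation factors had 22 of 46, 47.8%, and 9 with MYC. Eif2s3x, for a subunit of the initiation factor eIF2, covered 741 bp with RANKL plus I-BET, 1040 bp with I-BET, 884 bp with RANKL and 736 bp in untreated cells. E-boxes were in 8 of 26 promoters of ribosome biogenesis genes at regions without MYC, 30.8%, but in 3 of 22 of ribosomal protein genes, 13.6%.

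Other housekeeping groups gave the following counts. Nuclear pore and transport genes had 28 of 55, 50.9% (37.1 to 64.6), with 5 at regions with MYC. Mitochondrial ribosome, import and chaperone genes had 25 of 58, 43.1%, and 6 with MYC, among them Hspd1 and Hspe1, which encode the mitochondrial chaperonin pair. Spliceosome genes had 20 of 47, 42.6%, with U2af2 and Srsf1 best ranked. tRNA synthetases had 14 of 37, 37.8%, the unfolded protein and heat shock list 16 of 45, 35.6%, and ER to Golgi transport 18 of 52, 34.6%. The proteasome had 13 of 45, 28.9%. Respiratory chain genes had 14 of 65, 21.5%, with an interval that spans 14.7% (12.3 to 33.5). None had one with MYC, against 1.68% of all genes. MAX was found at 63 of these 65 genes in at least 1 list, so the 14 were 22.2% of the genes with MAX, against 29.2% of all genes with MAX. Dnajb9, a chaperone of the ER that its stress pathway induces, covered 577 bp with RANKL plus I-BET, 853 bp with I-BET, 911 bp with RANKL and 725 bp in untreated cells, one of the named regions that were not widest with I-BET.

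Chromatin, cell cycle and transcription lists gave middle values. Histone demethylases and methyltransferases had 15 of 41, 36.6%, and none with MYC, against 1.68% of all genes. Rbbp5, a core subunit of the MLL complexes, ranked 30, 509, 29 and 8 with RANKL plus I-BET, with I-BET, with RANKL and in untreated cells. DNA repair had 19 of 50, 38.0%, with Usp1 and Parp1 best ranked. Cell cycle and replication had 15 of 49, 30.6%, led by Ccne2 (cyclin E2), Cdk4 and Mcm7, and 3 with MYC (Aurka, Ccnd1 and E2f3). The Ccne2 region covered 1207, 1629, 1018 and 1274 bp in the same order of treatments. Genes of BET proteins, P-TEFb, elongation and Mediator had 15 of 51, 29.4%. Brd2, for a BET protein, had a region with MYC. Cdc73, of the PAF1 elongation complex, was best ranked with 106, 156, 42 and 95.

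Macrophage, osteoclast and interferon genes gave shares on both sides of the 14.7% of all genes, with intervals that span it. Macrophage identity genes had 7 of 35, 20% (8.44 to 36.9), at Spi1, Fcgr3, Tyrobp, Cebpb, Laptm5, Cd68 and Csf1r. Spi1, for the lineage factor PU.1, had a region without MYC that covered 526 bp with RANKL plus I-BET, 743 bp with I-BET, 422 bp with RANKL and 407 bp in untreated cells, and a second region with MYC, as had Cebpa and Klf4. Osteoclast genes had 4 of 39, 10.3% (2.87 to 24.2), at Fosl2, Tyrobp, Jund and Mitf. Interferon and antigen presentation genes had 4 of 48, 8.33% (2.32 to 19.98). Among genes with any MAX region these shares were 25% for macrophage, 13.3% for osteoclast and 10.8% for interferon genes. All 3 were below the 29.2% of all genes with MAX, which was not tested. NF-kB and inflammation genes had 13 of 43, 30.2% (17.2 to 46.1), among them Nfkbiz, Tnfaip3, Rel, Rela and Tnf. None had one with MYC, against 1.68% of all genes. With equal numbers of top peaks from each MAX list the 13 became 4, or 9.3%, under the 10.4% of all genes in that setting. With the higher-scoring 50% of each list the 13 became 3, or 6.98%, just above the 6.49% of all genes in that setting. The Fosl2 region covered 1011 bp with RANKL plus I-BET, 2572 bp with I-BET, 1249 bp with RANKL and 1521 bp in untreated cells.

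Markers of other cell types were nearly without regions of this set. Neuron and hepatocyte genes had 0 of 30 each, which allows up to 11.6%. Fibroblast and osteoblast genes had 0 of 21 (up to 16.1%), and lymphocyte genes 1 of 22 (up to 22.8%), Ebf1. The bounds of the fibroblast and lymphocyte lists lie above the 14.7% of all genes. Of 9 macrophage markers, Spi1, Csf1r and Cd68 had a region without MYC and 8 had MAX in some list, all but Adgre1. Of the 2 regions at Cd68, the one at chr11:69662006-69663483 lay inside the neighbouring gene Mpdu1. None of the markers of the other 4 cell types had a region without MYC. MAX was in some list at 2 of 6 neuron, 1 of 5 hepatocyte, 2 of 7 lymphocyte and 1 of 6 fibroblast and osteoblast markers. Any MAX region lay at 50.3% of all genes. The lists give binding and not RNA, so this is a limited check of the labelled cell line.

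Most regions of this set lay far from a called MYC peak, but the MYC lists were short and the rule leaves out overlaps. The median distance to the nearest peak of any MYC list was 838 kb. A MYC peak lay within 10 kb of 73 regions, 1.67%, and within 1 kb of 10, 0.228%. The shares were 2.22% and 0.452% of regions in 1 to 3 lists, which may overlap a MYC peak. Distance thus does not set this set apart. The MYC lists held 11 peaks with RANKL plus I-BET, 136 with I-BET, 299 with RANKL and 312 in untreated cells, and touched 11, 19, 267 and 279 of the all-treatment regions. The absence of MYC in this set thus rests mainly on the lists of RANKL and untreated cells. Just inside the rule, the regions nearest to MYC were one inside Arhgap21 at 203 bp (chr2:20899340-20899685), one at Cacybp at 221 bp and one at Alg3 at 268 bp. Just outside it, the smallest overlaps with a MYC peak were 61 bp (chr7:100943273-100944836), 72 bp (chr11:69408287-69412312) and 145 bp at Brpf1 with Cpne9. The smallest coverage by any MAX list among the regions kept was 209 bp, which is also the width of the smallest peak of the RANKL plus I-BET list. In 4346 of the 4381 regions the 4 lists shared at least 1 base, over a median of 373 bp, and 535 bp in regions with MYC.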

How the data were processed

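The 8 peak lists of MYC and MAX (2 antibodies, 4 treatments, 1 library each) were used as the authors deposited them, with positions and a score per peak that is the authors' own value and serves here to rank peaks within a list only. Per the submitters' processing notes, the builds were mm10 and GRCm38 and the tools included MACS2 (2.1.1.20160309), FastQC and Bowtie2 (2.3.4.1). For thresholds, the use of input, duplicate handling and read depth, the details were not given in the sources used here. MYC and MAX lists carry different tags in their names, so their thresholds may differ. Per the file contents, every row joins peaks of 3 call sets of unstated nature. The treatment protocol in the labels speaks of replicates, but 1 library is listed per antibody and treatment.

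Groups were taken from sample titles. MAX peaks were merged with no gap allowed, an overlap was at least 1 bp, and the 4381 regions were the same with bedtools 2.31.1. Covered width is the number of bases under the peaks of a list within a region, and a region takes the best rank of its peaks. Gene ends come from the RefSeq table of GRCm38.p6 (21883 protein-coding genes, no strand) and sequences from its promoter table (21262 windows of 300 bp for 17491 protein-coding genes, none on chromosome 18). Of 1209 list genes 1208 matched by symbol. The design planned no test. Shares carry exact Clopper-Pearson 95% intervals, and ratios the interval of their median, treating regions as independent. Code was tested on simulated data. The regions, gene lists and markers were chosen with earlier results of these data known.

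Named genes are those at the 15 best-ranked regions, at the 4 highest and 4 lowest width ratios of 3 comparisons, up to 6 members per list by rank and 4 without a region, chosen regulators, and the regions nearest to the MYC threshold. Others, including those with several E-boxes, were named after their values were seen. The tools were scipy 1.17.1, matplotlib 3.10.9, pandas 2.3.3 and numpy 2.4.6 under Python 3.11.15.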

Additional observations from a re-analysis of the deposited data

Results flagged for a closer look

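I-BET went with opposite differences in covered width depending on RANKL. In the 4381 regions the median ratio was 1.82 for I-BET over untreated cells (94.1% of regions wider) and 0.788 for RANKL plus I-BET over RANKL (84.0% narrower). Each ratio rests on 1 MAX library on each side, so the difference between them was not tested. The number of MAX peaks called moved the same way, 36785 with I-BET against 8839 in untreated cells, and 6307 with RANKL plus I-BET against 10889 with RANKL. The part of peak calling and depth in the result was not tested.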

How the results depend on the processing

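No paired analysis was possible because each group has 1 library and the labels give no shared replicate numbers. No width ratio crossed 1 under any alternative, but some gene lists changed side of the share of all genes. With equal top peaks, NF-kB genes had 9.3% and germ cell genes 12.9%, against 10.4% of all genes. With the higher-scoring 50% of each MAX list, osteoclast genes had 7.69%, germ cell genes 12.9%, macrophage genes 5.71% and respiratory chain genes 6.15%, against 6.49% of all genes. Of 147 values of the main results under alternatives, 29 moved by more than their interval or by over 1.5 times. Keeping the higher-scoring 50% of each MAX list gave 1887 regions, 1420 genes, 201 list genes in place of 389, 62.9% at gene ends, width ratios of 1.11 for RANKL and 1.78 for I-BET over untreated, a median mean rank of 33.0% in place of 31.3%, CACGTG in 26.4% of windows (27.1% in rank class 1 and 16.5% in class 4) and 54.1% of matches near the centre. Equal numbers of top peaks (6307 per list) gave 2749 regions, 67.5% at gene ends, a rank of 37.1% and CACGTG in 22.8%. Leaving out the I-BET MAX list gave 59.2% at gene ends and a rank of 38.2%. The higher-scoring 50% of the MYC lists gave a rank of 30.4% and a median distance to MYC of 2040 kb, and leaving out the I-BET MYC list gave 1114 kb. Merging across 200 bp gave an I-BET ratio of 1.91 and the widest peak per list 1.87. Gene end windows of 0.5 and 2.5 kb gave 58.2% and 66.4%, and genes of any biotype 66.5%. CANNTG in place of CACGTG gave 60.8% of all windows at the regions, 62.9% and 59.8% in rank classes 1 and 4 and 28.4% near the centre, so the E-box pattern does not hold for the looser motif. Of the 30 gene lists, 22 moved by over 1.5 times with the higher-scoring 50%, 6 with equal top peaks and 1 with the 2.5 kb window. One promoter per gene and promoters of any biotype were added after the data were seen and left the share within its interval. Removing peaks under 100 bp changed nothing, as no MAX peak is that narrow. Without the I-BET list its ratio has no value. Depth is unknown, so a missing peak does not show a missing protein.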

Other observations

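Small RNA genes lay in some of the MAX regions without MYC. A miRNA gene lay in 0.685% (0.462 to 0.976; 30 of 4381), compared with 0.487% of all-treatment regions with MYC, with an interval that spans the share without MYC (0.0590 to 1.75), and 0.217% (0.169 to 0.273) of regions in 1 to 3 lists. Mir320 was best ranked and shares its region with Polr3d, for a subunit of RNA polymerase III. That region covered 660 bp with RANKL plus I-BET, 1199 bp with I-BET, 831 bp with RANKL and 621 bp in untreated cells. Mir191 and Mir425 lay in 1 region at Dalrd3, Impdh2 and Ndufaf3, and Mir130b and Mir301b in another. A snoRNA gene lay in 0.274% (0.142 to 0.478) without MYC, 1.95% (0.844 to 3.8) with MYC and 0.0557% in 1 to 3 lists. A snRNA gene lay in 0.251% (0.125 to 0.449) without MYC, 1.70% (0.687 to 3.48) with MYC and 0.0835% in 1 to 3 lists. For tRNA genes the intervals of all classes overlapped. The shares were 0.479% (0.297 to 0.732) without MYC, 0.73% (0.151 to 2.12) with MYC and 0.353% (0.291 to 0.423) in 1 to 3 lists. The 3 classes had median merged widths of 1032, 1287 and 440 bp in that order. The part of width in these shares was not tested. Among the snRNA genes at regions without MYC were Rn7sk, which holds P-TEFb inactive, and Rnu11, Rnu1a1 and Rnu7. At Rn7sk the region covered 407 bp with RANKL plus I-BET, 1036 bp with I-BET, 1520 bp with RANKL and 653 bp in untreated cells. These examples were picked once their values were known.

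Of the 136 MYC peaks with I-BET, 85 lay outside every MAX region, while 7 of 299 did with RANKL and 1 of 312 in untreated cells, and none of the 11 with RANKL plus I-BET did. The I-BET MYC list therefore bears on few of the regions described here.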
